A study of Mus musculus with 3 samples.

Results

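C-type lectin receptors are surface proteins of myeloid cells that recognize sugars, lipids and proteins through a shared fold, the C-type lectin domain. Their genes were taken by name as all genes with a single platform symbol of *Clec* followed by a digit or starting with *Cd209*, plus *Mrc1*, *Mrc2*, *Mgl2*, *Cd302* and *Ly75*. This gave 38 of 18193 genes on the array, and 26 of the 38 lay above a floor of 5.3 on the log2 scale on at least 1 array. The study grew 4T1 cells, a mammary carcinoma line, in the mammary fat pad of BALB/c mice, from which they spread to the lung. The data were 3 Affymetrix expression arrays, with 1 array in each group. mTAMs were tumor-associated macrophages of the metastatic lung and pTAMs those of the matched primary tumor, both taken 5 weeks after tumor inoculation. BMDM were macrophages cultured from the marrow of healthy mice, which bore no tumor. TAMs were sorted for surface CD11b, encoded by *Itgam*, and for the macrophage antigen encoded by *Adgre1*. The text of the study describes no such sort for BMDM. No genetic alteration is given for any group, and the ages of the mice, the number of mice per array and the culture factor of BMDM are not given in the labels. The groups therefore differ in tissue of origin, in tumor exposure and in culture, which cannot be told apart here.

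With 1 array per group no difference below has a test, a p-value or an error across animals. The only spread at hand was that between probe sets of the same gene, with an SD of the log2 difference of 0.26 for mTAMs against pTAMs, 0.35 for pTAMs against BMDM and 0.44 for mTAMs against BMDM. Array medians were 5.43 in mTAMs and 5.43 in pTAMs, against 5.36 in BMDM. *Adgre1* was 10.06 in mTAMs, against 11.93 in BMDM, and 3.81-fold lower in pTAMs than in BMDM. *Itgam* was 11.61 in mTAMs and 11.90 in pTAMs, against 10.46 in BMDM. The 11 macrophage markers that were read lay above the floor on every array. Of these, 0 were at least 2-fold higher and 4 lower in mTAMs than in pTAMs (5.36% and 2.58% of all genes). *Cd163* (4.32-fold), *Fcgr1* (2.73-fold) and *Aif1* (2.11-fold) were lower by the most. Against BMDM, 5 were higher and 1 lower in pTAMs, and 3 higher and 2 lower in mTAMs. The summed linear signal of the 11 markers, which is 2 to the power of each value added over the list, was 48443 in mTAMs, against 54971 in pTAMs and 59651 in BMDM. A gene that dominated such a sum was left out as a check added after seeing the data, and without *Lyz2*, the lysozyme gene, the macrophage sum was 31599 in mTAMs, against 39685 in pTAMs and 39619 in BMDM. In sorted cells measured in bulk, fewer cells of a type and less RNA per cell cannot be told apart. The floor of 5.3 is part of the rule, and it is not a sharp limit, since the 95th percentile of the 86 probe sets that detect taste, vomeronasal and olfactory receptors came to 5.56. The members just inside it were *Clec4f* (5.33), *Clec2e* (5.36) and *Clec1a* (5.37) at their highest array, and those just outside were *Clec18a* (5.21) and *Cd209e* (5.20).

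As background, receptors of this family sort into a few modes of action. Some take up glycoproteins for degradation or antigen presentation. Others pair with the adaptor FcRγ or DAP12, or carry a short activating motif of their own, and signal through the kinase SYK and the adaptor CARD9 to NF-κB. A further set carries inhibitory motifs that recruit phosphatases, and the CLEC2 proteins serve as ligands for receptors of NK cells. In tumors, the mannose receptor and the galactose-type lectins are widely used to mark alternatively activated macrophages.

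Compared with BMDM, both kinds of TAMs had far more transcript of the fungal receptors Dectin-1 (*Clec7a*) and Dectin-2 (*Clec4n*) and of the galactose-type lectin *Mgl2*, whereas the mannose receptor *Mrc1* was within 2-fold. Genes that cleared the floor on either array of a comparison were compared, and those whose measured values lay 1 or more apart on the log2 scale were called. In pTAMs against BMDM, 8 of 23 members compared were called higher (34.8%), where 8.78% of all 11859 genes compared were, and 1 member was called lower (4.35%), where 7.5% of all genes were. In mTAMs against BMDM, 7 of 26 were called higher (26.9%) and 1 lower (3.85%), with 11.5% and 14.4% of all 11945 genes. These 2 comparisons share the BMDM array. For all genes in mTAMs against BMDM the balance turned with the scaling, as 1368 higher and 1715 lower genes became 1548 and 1258 after cyclic loess normalization, which moved the median log2 difference of all genes from -0.11 to 0.0. In mTAMs against pTAMs, 2 of 26 members were called higher (7.69%) and 2 lower (7.69%), with 5.36% and 2.58% of all 11801 genes. The median log2 difference was 0.58 over the members and -0.05 over all genes in pTAMs against BMDM. It was 0.48 and -0.11 in mTAMs against BMDM, and 0.04 and -0.06 in mTAMs against pTAMs. In BMDM, 7 of the 26 members lay at or below the floor, with *Ly75* and *Mgl2* among them. They passed it only through TAMs and so had to differ, and these counts and medians are descriptions.

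**Figure D1:**
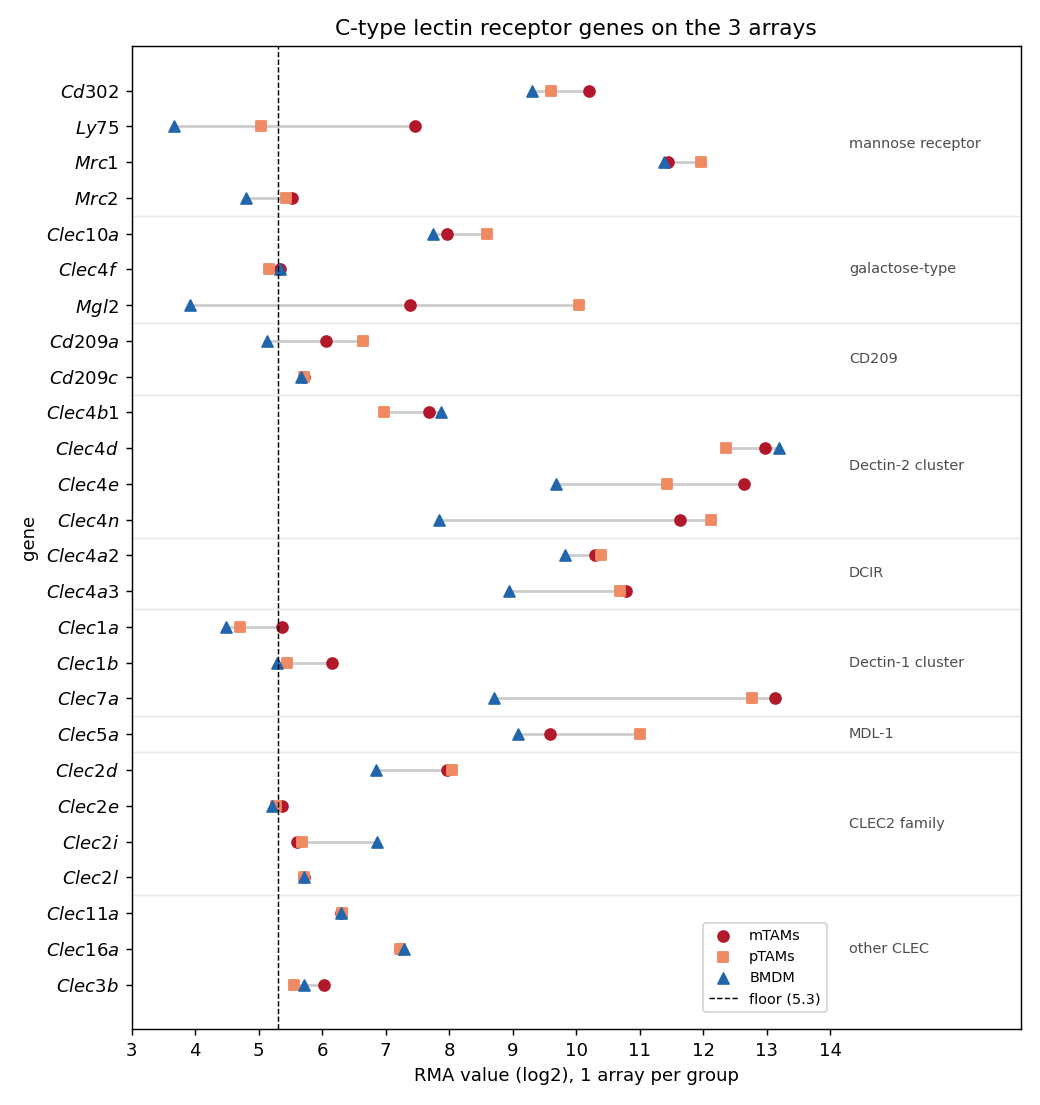
RMA value (horizontal axis, log2) of each of the 26 C-type lectin receptor genes above the floor (rows, ordered by role) on the mTAM, pTAM and BMDM arrays, 1 point per array, with a gray line from the lowest to the highest and the floor of 5.3 dashed. *Clec7a* and *Clec4n* span 4.42 and 4.29 with every value above the floor, and *Mgl2* and *Ly75* span at least 4.74 and 2.17, counted from the floor.

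The members differed widely in how far they moved over the 3 arrays. The range from the lowest to the highest array had a median of 0.88 over the 26 members and of 0.61 over all 12025 genes above the floor. It reached 1 in 10 members (38.5%), where 29.6% of all genes reached it. A range of at least 3 was found in 4 members (15.4%), against 3.93% of all genes, and in 3 members (11.5%), against 3.35%, when values below the floor were raised to it, which took out *Ly75*. *Mgl2* and *Ly75* are among the members that entered only through TAMs. At the other end, 6 members (23.1%) and 21.7% of all genes moved by less than 0.2. Of the 10 members with a range of at least 1, the highest array was pTAMs for 5, mTAMs for 4 and BMDM for 1.

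The promoters of *Clec7a*, *Clec4e*, *Mgl2* and *Ly75* are shown because the results turn on these genes, of which *Clec7a* had the largest measured difference in mTAMs against BMDM, *Mgl2* that in pTAMs against BMDM, and *Clec4e* and *Ly75* were called higher in mTAMs than in pTAMs. They come from RefSeq on the mouse assembly GRCm38.p6, which gave a promoter for 21 of the 26 genes above the floor, and not for *Clec4n*. Each run reads 5′ to 3′ on the strand of the gene, from 250 bases before to 50 bases after its start. Capitals mark a match to the C/EBP motif TTGCNNAA on either strand. C/EBP factors are regulators of myeloid genes.
Clec7a, chr6:129472730-129473029, minus strand: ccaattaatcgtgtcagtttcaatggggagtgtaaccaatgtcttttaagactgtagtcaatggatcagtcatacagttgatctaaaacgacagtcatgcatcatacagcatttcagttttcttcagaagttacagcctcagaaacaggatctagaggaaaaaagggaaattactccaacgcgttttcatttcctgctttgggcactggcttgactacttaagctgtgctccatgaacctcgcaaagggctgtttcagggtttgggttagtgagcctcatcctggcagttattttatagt
Clec4e, chr6:123289822-123290121, minus strand: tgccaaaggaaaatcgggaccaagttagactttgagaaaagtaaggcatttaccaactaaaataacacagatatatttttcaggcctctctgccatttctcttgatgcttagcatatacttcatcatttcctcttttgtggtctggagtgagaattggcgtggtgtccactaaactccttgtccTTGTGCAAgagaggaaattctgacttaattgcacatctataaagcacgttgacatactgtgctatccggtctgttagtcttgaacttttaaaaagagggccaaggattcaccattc
Mgl2, chr11:70130107-70130406, plus strand: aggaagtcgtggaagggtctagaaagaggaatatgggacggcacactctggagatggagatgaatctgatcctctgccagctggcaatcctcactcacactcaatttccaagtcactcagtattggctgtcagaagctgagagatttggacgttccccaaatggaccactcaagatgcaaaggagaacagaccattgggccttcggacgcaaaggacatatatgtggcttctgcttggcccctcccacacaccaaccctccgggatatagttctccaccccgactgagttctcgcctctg
Ly75, chr2:60383224-60383523, minus strand: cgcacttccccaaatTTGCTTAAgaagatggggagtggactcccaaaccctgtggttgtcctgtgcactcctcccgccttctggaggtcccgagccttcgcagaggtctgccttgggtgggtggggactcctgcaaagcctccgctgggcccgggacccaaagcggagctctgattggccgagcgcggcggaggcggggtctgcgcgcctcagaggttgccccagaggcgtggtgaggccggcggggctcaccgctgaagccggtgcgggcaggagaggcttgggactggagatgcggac

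The match in the *Clec4e* promoter covers bases 185 to 192 of the run and that of *Ly75* bases 16 to 23. The C/EBP motif was found in 6 of 21 promoters of these genes (*Clec4e*, *Ly75*, *Cd302*, *Clec2i*, *Clec11a* and *Clec16a*) and in 10.8% of all 27025 promoters of the same length. *Clec2i*, which was lower in TAMs, and *Clec11a*, which did not move, are among them. The PU.1 motif GAGGAAGT, on either strand, was in none of the 21 and in 3.28% of all promoters. AP-1 (TGANTCA) was found in 2, STAT (TTCNNNGAA) in 1 and a κB motif (GGANTTTCC) in 1, where 7.93%, 8.47% and 1.23% of all promoters hold them. No 2 matches overlapped in any of the 21 promoters, and those of *Clec7a* and *Mgl2* hold no match to any of the 5 motifs. A match is a description of these letters, and binding was not measured.

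The mannose receptor family comprises large endocytic receptors with several lectin domains, and *Cd302* is a small relative. *Mrc1*, which encodes CD206 and takes up mannosylated glycoproteins, was 11.45 in mTAMs and 11.96 in pTAMs, against 11.38 in BMDM. The differences stayed within 2-fold, with 1.42-fold lower values in mTAMs than in pTAMs. *Cd302*, an endocytic receptor of myeloid cells, was 10.20 in mTAMs, against 9.61 in pTAMs and 9.31 in BMDM, which made mTAMs 1.85-fold higher than BMDM. It was called only after cyclic loess normalization, with a log2 difference of 1.10. *Mrc2*, which encodes the collagen receptor Endo180, was 5.52 in mTAMs and 5.43 in pTAMs, against 4.80 in BMDM. These values lie close to the floor, and its other probe set was below it.

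*Ly75*, which encodes the antigen uptake receptor DEC-205 of dendritic cells, was the member of this family that set mTAMs apart. It was 7.47 in mTAMs, against 5.03 in pTAMs and 3.66 in BMDM, so it was above the floor in mTAMs alone and at least 4.50-fold higher there than in pTAMs or BMDM. *Cd302* is the next protein-coding gene to *Ly75* on chromosome 2, and it was 1.51-fold higher in mTAMs than in pTAMs. Of 11 alveolar macrophage markers, 10 were called higher in mTAMs than in pTAMs. Their summed linear signal was 16566 in mTAMs and 3693 in pTAMs, against 817 in BMDM. Without *Chil3*, which carried most of this sum, the other 10 came to 4981 in mTAMs and 1340 in pTAMs, against 785 in BMDM. Against BMDM, 9 of the 11 were called higher in mTAMs, while *Fabp4* (7.87 in mTAMs, 8.21 in BMDM) and *Pparg* (7.75 and 8.01) were slightly lower. *Siglecf*, a sialic acid-binding receptor of alveolar macrophages and eosinophils, was 8.91 in mTAMs, against 4.57 in pTAMs and 4.13 in BMDM. The part of such cells in the *Ly75* difference was not tested.

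The galactose-type lectins MGL1 and MGL2 are encoded by *Clec10a* and *Mgl2*, neighboring genes on chromosome 11 with no other protein-coding gene between them. Both were highest in pTAMs, but to a very different extent. *Mgl2* was 7.38 in mTAMs and 10.04 in pTAMs, against 3.92 in BMDM. It was thus 6.32-fold lower in mTAMs than in pTAMs, and pTAMs were at least 26.7-fold and mTAMs at least 4.23-fold higher than BMDM. *Clec10a* was 7.96 in mTAMs, against 8.59 in pTAMs and 7.74 in BMDM, within 2-fold in all 3 comparisons. *Clec4f*, a galactose-binding receptor of Kupffer cells in the liver, lay at the floor with 5.33 in mTAMs and 5.17 in pTAMs, against 5.33 in BMDM.

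*Cd209a*, a mouse relative of human DC-SIGN, followed the order of *Mgl2* at a much smaller range. It was 6.06 in mTAMs, against 6.64 in pTAMs and 5.13 in BMDM, and pTAMs were at least 2.53-fold higher than BMDM. The value in mTAMs was 1.49-fold below that in pTAMs. *Cd209c* read 5.71 in mTAMs and 5.71 in pTAMs, against 5.66 in BMDM, and the other genes of this cluster on chromosome 8 (*Cd209b*, *Cd209d*, *Cd209e*, *Cd209f*, *Cd209g* and the adjacent *Clec4g*) were at or below the floor on every array.

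*Ly75*, *Mgl2* and *Cd209a* are also expressed by dendritic cells, so the 14 dendritic cell markers are given beside them. Of these, 6 of 12 compared were called higher in pTAMs than in BMDM, and in mTAMs against pTAMs 1 was called higher and 2 lower. *Ccl22* entered the 6 and the 2 with a fold of at least 1.75. The summed linear signal was 8322 in mTAMs, against 5607 in pTAMs and 1676 in BMDM, and *Cd24a*, which other cell types share, set its order. Without that gene the other 13 markers summed to 1983 in mTAMs and 3103 in pTAMs, against 740 in BMDM. *Cd24a* was highest in mTAMs (12.63, against 11.29 in pTAMs), while *H2-DMb2*, a chaperone of MHC class II, was highest in pTAMs (7.95 in mTAMs and 9.78 in pTAMs). *Fscn1* was 8.97 in mTAMs and 9.57 in pTAMs, against 4.07 in BMDM, and *Itgax* was 9.22 and 9.56, against 6.62. *Xcr1* and *Itgae* were below the floor on every array, and *Zbtb46* stayed between 5.91 and 5.99. The part of dendritic cells in these differences was not tested.

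The Dectin-2 cluster on chromosome 6 holds receptors that couple to FcRγ, and its members moved apart. *Clec4n*, which encodes Dectin-2, a receptor for fungal mannans, was 11.63 in mTAMs and 12.13 in pTAMs, against 7.84 in BMDM. This corresponds to 13.8-fold higher values in mTAMs and 19.6-fold higher values in pTAMs than in BMDM. Its other probe set gave nearly the same log2 differences (3.80 and 4.26). *Clec4e*, which encodes Mincle, a receptor for mycobacterial glycolipid and for a protein of dead cells, was 12.65 in mTAMs, against 11.43 in pTAMs and 9.68 in BMDM. It was 2.33-fold higher in mTAMs than in pTAMs, 3.36-fold higher in pTAMs than in cultured BMDM, and 7.84-fold higher in mTAMs than in BMDM. The other probe set of *Clec4e* gave log2 differences of 1.27, 1.65 and 2.92 in place of 1.22, 1.75 and 2.97.

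The remaining adaptor-coupled genes of the cluster were highest in BMDM. *Clec4d* encodes MCL, which forms a complex with Mincle and helps to bring it to the cell surface. It was 12.97 in mTAMs and 12.36 in pTAMs, against 13.20 in BMDM, and its single probe set is marked as shared between transcripts. *Clec4b1*, which encodes DCAR, another receptor for mycobacterial lipid, was 7.68 in mTAMs, against 6.97 in pTAMs and 7.88 in BMDM. Against BMDM, *Clec4d* was 1.79-fold and *Clec4b1* 1.88-fold lower in pTAMs, neither of which reached 2-fold.

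In gene order, *Clec4n*, *Clec4d* and *Clec4e* follow each other with no other protein-coding gene between them. *Clec4d* differed by -0.23 on the log2 scale in mTAMs against BMDM while its neighbors differed by 3.79 and 2.97. The same stretch also holds the DCIR genes *Clec4a3* and *Clec4a2*, with *Clec4b1* between them. *Clec4a2* encodes DCIR, which carries an inhibitory motif, and it was 10.29 in mTAMs and 10.40 in pTAMs, against 9.82 in BMDM. Its other probe set gave a larger log2 difference in pTAMs against BMDM (1.47 in place of 0.58), so that the mean of both reached the call at 1.02. In mTAMs against pTAMs that probe set gave -0.9 in place of -0.11. *Clec4a3*, which encodes the relative DCIR3, was 10.79 in mTAMs, against 10.69 in pTAMs and 8.94 in BMDM. It was 3.61-fold higher in mTAMs and 3.36-fold higher in pTAMs than in BMDM. A probe set that detects both *Clec4b1* and *Clec4a2* was left out because it has 2 symbols, and it read 10.99 in mTAMs and 10.92 in pTAMs, against 10.35 in BMDM.

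**Figure D2:**
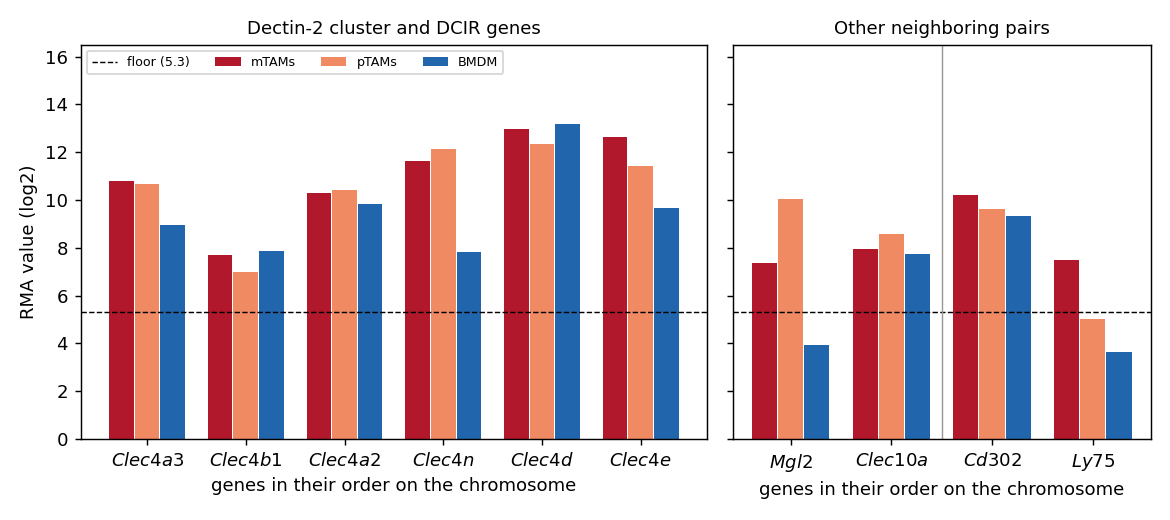
RMA values (vertical axis, log2, from 0) of neighboring C-type lectin receptor genes in their order on the chromosome (horizontal axis), with 1 bar each for the mTAM, pTAM and BMDM arrays and the floor of 5.3 dashed. *Clec4d* is highest in BMDM (13.20) between *Clec4n* (7.84 in BMDM) and *Clec4e* (9.68 in BMDM), which are both lowest there, and *Mgl2* spans a wide range next to *Clec10a*.

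In the Dectin-1 cluster, also on chromosome 6, *Clec7a* had the largest difference between mTAMs and BMDM of all 26 members. Its product Dectin-1 binds β-glucan and signals through SYK by a motif of its own. *Clec7a* was 13.13 in mTAMs, against 12.77 in pTAMs and 8.71 in BMDM, which is 21.4-fold higher in mTAMs and 16.7-fold higher in pTAMs than in BMDM. The TAM arrays differed by 1.28-fold. *Clec1b*, which encodes CLEC-2, the podoplanin receptor of platelets and some myeloid cells, was 6.16 in mTAMs and 5.44 in pTAMs, against 5.29 in BMDM, so that mTAMs exceeded BMDM by at least 1.82-fold. Among 9 platelet markers, none was higher by 2-fold or more in mTAMs than in pTAMs and *Pf4* was 3.43-fold lower. Their summed linear signal was 2252 in mTAMs, against 6306 in pTAMs and 5222 in BMDM, and nearly all of it was *Pf4*, which was 12.19 in BMDM. The other 8 summed to 679 in mTAMs and 901 in pTAMs, against 549 in BMDM. *Clec1a*, adjacent to *Clec7a*, was 5.37 in mTAMs and 4.71 in pTAMs, against 4.48 in BMDM. It is known from endothelium, for which 7 of 12 markers lay above the floor on any array, with none at least 2-fold higher and 1 lower in mTAMs against pTAMs (summed linear signal 775 in mTAMs, against 887 in pTAMs and 638 in BMDM).

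*Clec5a* encodes MDL-1, which pairs with DAP12 and takes part in inflammatory responses to viruses. It was 9.59 in mTAMs and 11.0 in pTAMs, against 9.09 in BMDM. pTAMs stood above both other arrays, with mTAMs 2.66-fold lower than pTAMs and pTAMs 3.76-fold higher than BMDM. mTAMs were within 2-fold of BMDM. With *Mgl2*, this gene was the only member called lower in mTAMs than in pTAMs, and *Clec4e* and *Ly75* were the only ones called higher.

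**Figure D3:**
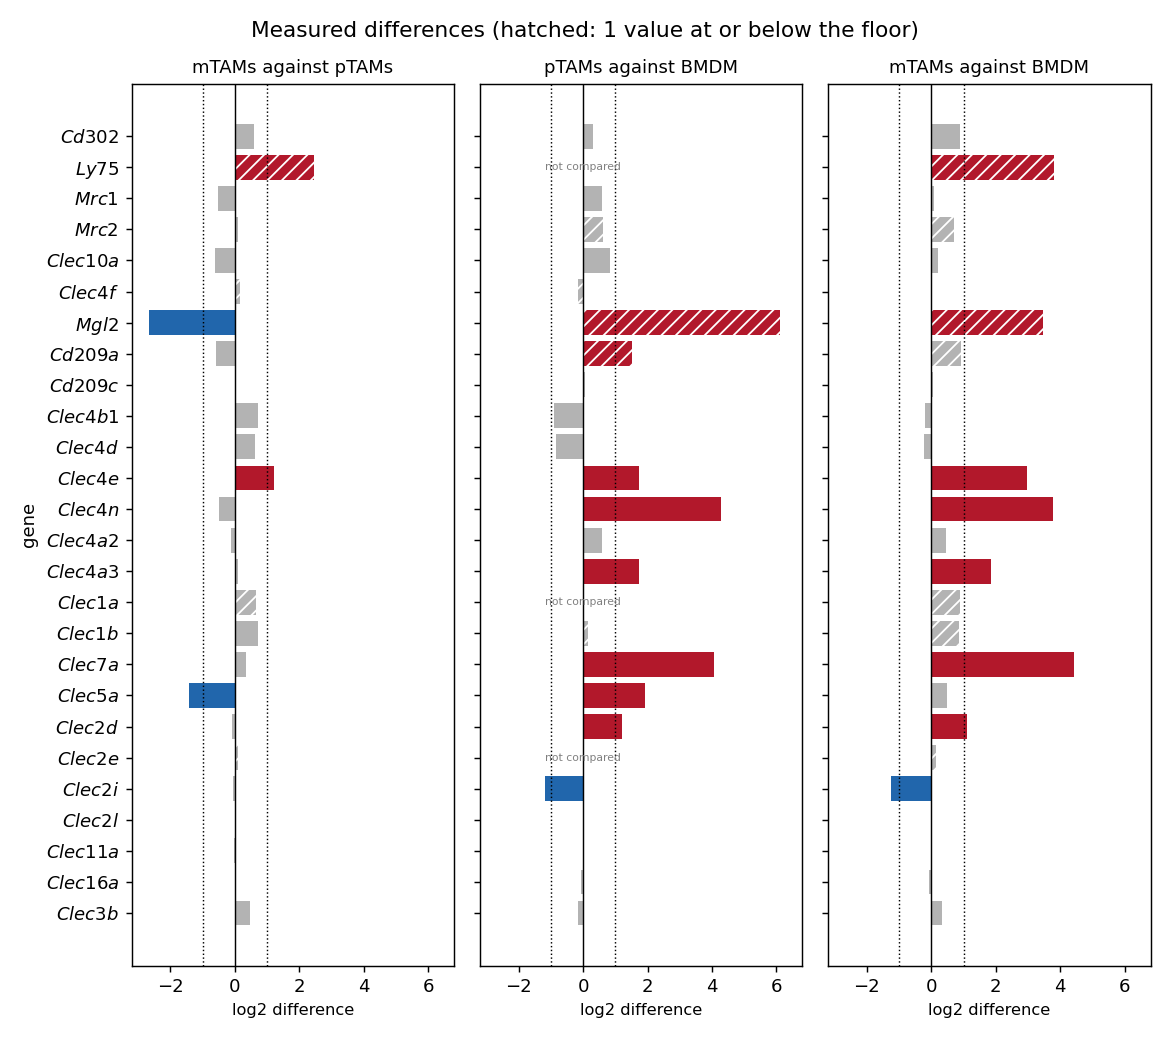
Measured log2 difference (horizontal axis) of each of the 26 genes (rows) in mTAMs against pTAMs, pTAMs against BMDM and mTAMs against BMDM, 1 bar per gene, red where called higher, blue where called lower and gray within 2-fold (dotted lines at -1 and 1). Hatched bars have a value at or below the floor, and 3 genes were not compared in pTAMs against BMDM because both values were.

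Markers of neutrophils, which also express Mincle, MCL and Dectin-1, had their highest summed level in mTAMs and their lowest in BMDM. Of the receptor genes, *Clec4e* and *Clec7a* were highest in mTAMs, *Clec4n* in pTAMs and *Clec4d*, the MCL gene, in BMDM. Of 9 neutrophil markers read, 7 were higher by 2-fold or more in mTAMs than in pTAMs and all 9 were at least 2-fold higher in mTAMs and in pTAMs than in BMDM. Their summed linear signal was 76216 in mTAMs, against 33118 in pTAMs and 1660 in BMDM. *Cxcr2*, a chemokine receptor of neutrophils, was 11.32 in mTAMs and 8.18 in pTAMs, against 5.14 in BMDM. *Csf3r*, the receptor for the neutrophil growth factor G-CSF, was 12.52 in mTAMs, against 10.02 in pTAMs and 6.28 in BMDM. Monocyte markers were likewise higher in TAMs, with 5 of 6 in mTAMs and 6 of 6 in pTAMs at least 2-fold above BMDM. In mTAMs against pTAMs, 1 was higher and 2 were lower, with a list median of -0.95 on the log2 scale. Their summed linear signal was 25290 in mTAMs and 23597 in pTAMs, against 2611 in BMDM. Without *Chil3*, the chitinase-like gene that is also on the alveolar list, it was 13705 in mTAMs, against 21244 in pTAMs and 2579 in BMDM. The part of neutrophils and monocytes in the differences of *Clec4e*, *Clec4n* and *Clec7a* was not tested.

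The CLEC2 genes encode ligands for NKR-P1 receptors of NK cells, and the best measured of them moved in opposite directions. *Clec2d*, which encodes Clr-b, a ligand that restrains NK cells, was 7.96 in mTAMs, against 8.05 in pTAMs and 6.85 in BMDM. It was 2.16-fold higher in mTAMs and 2.30-fold higher in pTAMs than in BMDM. *Clec2i*, which encodes Clr-g, was 5.61 in mTAMs and 5.68 in pTAMs, against 6.87 in BMDM. It was the only member called lower in TAMs, by 2.39-fold in mTAMs and 2.28-fold in pTAMs against BMDM. The other probe set of *Clec2i* gave -1.11 and -1.03 on the log2 scale but lay below the floor. *Clec2e* was at the floor with 5.36 in mTAMs, against 5.27 in pTAMs and 5.21 in BMDM, and *Clec2l* read 5.71 on all 3 arrays. Of 9 NK cell markers, 2 lay above the floor, and the summed linear signal was 318 in mTAMs and 462 in pTAMs, against 219 in BMDM. Without *Klrk1* it was 186 in mTAMs and 182 in pTAMs, against 168 in BMDM.

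The last 3 genes bear the CLEC name but do not encode classical surface receptors, and none moved by 2-fold. *Clec3b*, which encodes the secreted plasminogen-binding protein tetranectin, was 6.03 in mTAMs, against 5.56 in pTAMs and 5.71 in BMDM. *Clec11a*, which encodes a secreted growth factor of marrow and bone, stayed between 6.29 and 6.31. *Clec16a*, a gene of endosomal transport and autophagy, was 7.22 in mTAMs and 7.23 in pTAMs, against 7.29 in BMDM. Fibroblasts can make *Clec3b* and *Mrc2*, and of 10 fibroblast markers, 3 of 7 compared were higher by 2-fold or more in mTAMs than in pTAMs and 6 of 7 were in each TAM group against BMDM. *Col1a2*, *Col3a1* and *Dcn*, genes of collagens and of a matrix proteoglycan, read 6.92-fold, 7.67-fold and 9.58-fold higher in mTAMs than in pTAMs. The summed linear signal of the list was 11751 in mTAMs, against 13234 in pTAMs and 322 in BMDM. *Fn1*, the fibronectin gene, which macrophages also express, carried most of it, and the other 9 markers summed to 5143 in mTAMs and 1157 in pTAMs, against 271 in BMDM. *Lum* was below the floor on every array, and the part of fibroblasts in these values was not tested.

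To see whether the signaling partners moved with the receptors, the adaptors and the SYK-CARD9 pathway were read from lists. *Fcer1g*, which encodes FcRγ, was 12.98 in mTAMs and 12.90 in pTAMs, against 13.11 in BMDM. *Tyrobp*, which encodes DAP12, was 13.68 in mTAMs, against 13.37 in pTAMs and 13.46 in BMDM. These adaptors of Dectin-2, Mincle and MDL-1 thus stayed within 1.24-fold in every comparison. *Hcst*, which encodes the adaptor DAP10, was 9.70 in mTAMs and 8.34 in pTAMs, against 7.74 in BMDM, and it was 2.57-fold higher in mTAMs than in pTAMs.

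The SYK-CARD9 list held 22 genes, of which 5, with *Card9* itself among them, were not analysed here. Of the 17 that were read, 5 were at least 2-fold higher and 1 lower in mTAMs against BMDM, with 11.5% and 14.4% of all genes. The list median was 0.83, where all genes had -0.11. In pTAMs against BMDM, 4 were higher and 1 was lower, with 8.78% and 7.5% of all genes (list median 0.70, all genes -0.05). *Syk*, the kinase itself, was 10.56 in mTAMs, against 9.61 in pTAMs and 8.74 in BMDM, 3.53-fold higher in mTAMs than in BMDM. *Fgr*, a Src family kinase of myeloid cells, was 10.93 in mTAMs and 9.46 in pTAMs, against 6.6 in BMDM. It alone of the 17 was called higher in mTAMs against pTAMs (2.77-fold), where 5.36% of all genes were. The NF-κB subunit gene *Rel* was 8.39 in mTAMs, against 7.69 in pTAMs and 6.11 in BMDM. *Malt1*, which encodes the protease partner of CARD9, was 8.41 in mTAMs and 8.82 in pTAMs, against 7.21 in BMDM. *Src* (2.99-fold in pTAMs) and *Relb* (2.16-fold in mTAMs) were the remaining genes called higher against BMDM. *Blnk*, a linker protein that is phosphorylated by SYK, was the gene called lower, with 8.14 in mTAMs, against 8.08 in pTAMs and 9.96 in BMDM.

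Phosphatases and other brakes limit these receptors. Of the 4 genes read, which included *Ptpn6* and *Inpp5d*, none was called in mTAMs against pTAMs or in pTAMs against BMDM. *Cblb*, a ubiquitin ligase that limits SYK signaling, was 2.35-fold lower in mTAMs than in BMDM. Among 11 cytokine and inflammasome genes that these receptors can induce along with many other stimuli, 10 were compared. Of these, 7 were called higher in mTAMs than in BMDM (11.5% of all genes were) and 5 in pTAMs than in BMDM (8.78%). *Il1b* was at least 440-fold higher in mTAMs and 256-fold in pTAMs than in BMDM, and *Ptgs2* at least 98.4-fold and 72.5-fold. In the same order, *Il6* was at least 38.1-fold and 24.4-fold, *Cxcl2* 85.0-fold and 58.9-fold and *Il23a* at least 2.66-fold and 1.69-fold higher. *Nlrp3* was called in mTAMs only (2.19-fold). *Tnf* was 9.83 in mTAMs and 7.62 in pTAMs, against 8.37 in BMDM, and *Il10* was 2.62-fold higher in mTAMs than in pTAMs. *Pycard*, which encodes the inflammasome adaptor ASC, was 2.30-fold lower in mTAMs than in pTAMs. *Il12b* was below the floor on all 3 arrays. The part of the receptors, and that of neutrophils and monocytes, in the values of the signaling and output genes was not tested.

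**Figure D4:**
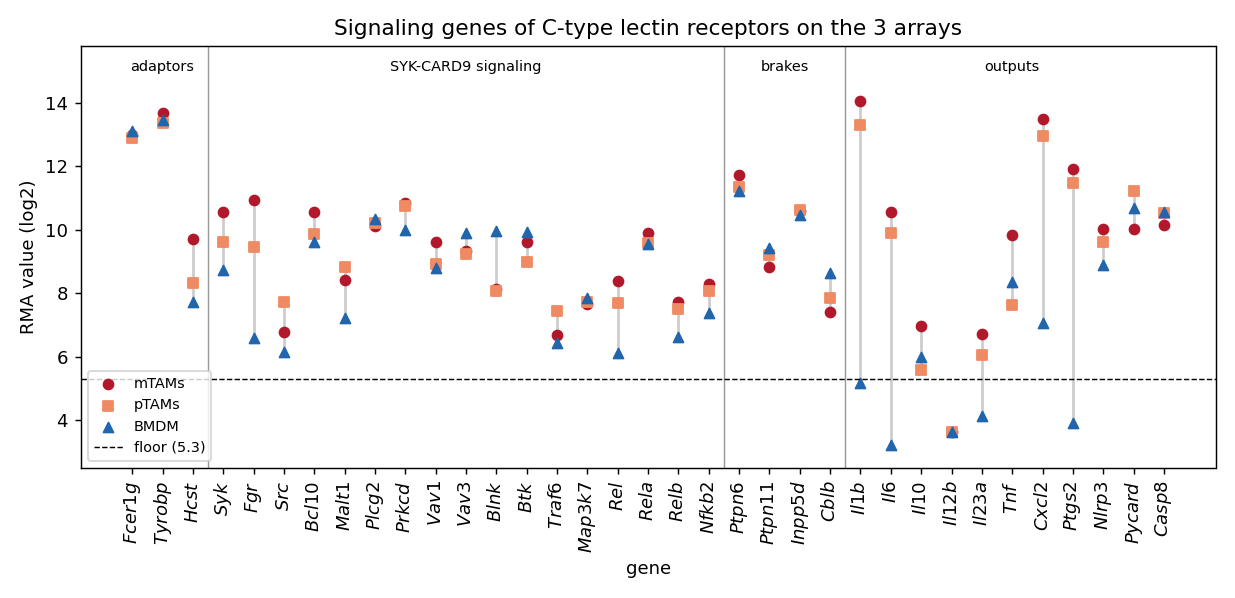
RMA values (vertical axis, log2) of the adaptors, the SYK-CARD9 genes, the brakes and the output genes (horizontal axis) on the mTAM, pTAM and BMDM arrays, each array a point, and the floor of 5.3 a dashed line. *Fcer1g* and *Tyrobp* nearly coincide on the 3 arrays, whereas *Fgr* has 10.93 in mTAMs against 6.6 in BMDM.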

How the data were processed

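Total RNA of the macrophages was hybridized to 3 Affymetrix mouse arrays. The authors deposited RMA log2 values of 45037 probe sets, which are background-corrected, quantile-normalized and summarized per probe set. No RMA version is stated. Quantile normalization hides a shift of the whole transcriptome, and values were identical on the 3 arrays for 21.4% of probe sets. Probe sets with 1 platform symbol (34945) were kept, and the probe set of highest mean stood for each gene. All 38 member gene IDs were found in a RefSeq gene table, which served for names and gene order.

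Genes above 5.3 on at least 1 of 2 arrays were compared, and a log2 difference of at least 1 was called. Where the lower value was at or below 5.3, the fold was taken from 5.3 and stated as a minimum. Calls and list counts used the measured values. Some counted genes thus had a minimum fold below 2 (*Cidec* 1.48, *Ccl22* 1.75 and, in pTAMs, *Il23a* 1.69). Every member above 5.3 is named, with the signaling genes called, the main adaptors and a few markers per list. The members and lists were chosen with earlier results of these data known. The steps were tested on simulated data. Alternatives were 3 other scalings (median-centering, quantile, cyclic loess), averaging the probe sets of a gene, no shared probe sets, no floor, a floor of 6.3, values raised to the floor, and a 3-fold threshold. List sums without 1 gene, and ranges with values raised to the floor, were added after seeing the data. The number of arrays limits the precision. Python 3.11.15 with pandas 2.3.3 and R 4.3.3 with limma 3.58.1 were used.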

Additional observations from a re-analysis of the deposited data

How the results depend on the processing

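No paired analysis was possible because each group had 1 array. Counts of members called stayed within 1.5 times under the 3 normalizations, the mean of all probe sets, no shared probe sets, both other floors and values raised to the floor. At a 3-fold threshold, mTAMs against pTAMs kept 1 gene higher (*Ly75*) and 1 lower (*Mgl2*). Against BMDM, 6 of 23 members were higher in pTAMs and 6 of 26 in mTAMs, and 0 were lower in either. For all genes, the 3-fold counts in mTAMs against pTAMs were 294 higher and 58 lower, in place of 633 and 304. They were 637 and 378 in pTAMs against BMDM, in place of 1041 and 890, and 862 and 575 in mTAMs against BMDM, in place of 1368 and 1715. No called difference of a member changed sign under any alternative. The other floors, values raised to the floor and the 3-fold threshold could not have changed a sign. Raised to the floor, the log2 difference of *Mgl2* was 4.74 in pTAMs and 2.08 in mTAMs against BMDM, and that of *Ly75* was 2.17 in mTAMs against either.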

Other observations

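The 12 members at or below the floor on every array were *Cd209b*, *Cd209d*, *Cd209e*, *Cd209f*, *Cd209g*, *Clec12b*, *Clec14a*, *Clec18a*, *Clec2g*, *Clec2h*, *Clec2m* and *Clec4g*. Of all 38 members, 5 had the same value on all 3 arrays. Without the floor, *Cd209e* (5.20 in pTAMs and 4.15 in BMDM) and *Ly75* (5.03 in pTAMs and 3.66 in BMDM) would have been called higher in pTAMs than in BMDM. *Clec12b*, a gene for an inhibitory receptor, was 4.70 in mTAMs, against 4.06 in pTAMs and 3.99 in BMDM.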
